A study of Mus musculus with 4 samples.

Results

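The 7 genes described are the transcription factor genes Egr1, Egr2, Egr3 and Egr4, the corepressor genes Nab1 and Nab2, and the activity-regulated gene Arc. They were found by symbol in the platform annotation, which assigned them 11 of the 45101 probe sets on the array and 7 of the 18193 genes that had a probe set of a single symbol. The study measured total RNA of mouse ST2 cells, an established fibroblast-like line of BALB/c bone marrow stroma, on Affymetrix GeneChip arrays of the mouse genome, and asked which genes respond early to pulsed ultrasound of low intensity (LIPUS), which is applied to fractures as a mechanical stimulus. There were 4 groups of 1 array each, all grown at 37 °C with 10% serum: a control without ultrasound, and cells given LIPUS at 25 mW per square cm for 20 min, followed by culture for 0.5, 1 or 3 h. The labels name neither a sham exposure nor the time at which control cells were taken, so handling and ultrasound cannot be told apart. With 1 array per group there is no replicate error and no test, so all values below describe these 4 RNA samples.

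EGR proteins are zinc finger transcription factors that bind GC-rich sites, and their genes are switched on within minutes by growth factors, stretch and other signals that reach serum response factor through MAP kinases. NAB proteins bind an inhibitory domain that EGR1, EGR2 and EGR3 carry and EGR4 lacks, and they restrain transcription from EGR sites, with Nab2 known as a gene that EGR factors themselves induce. Arc encodes a cytoskeleton-associated protein best known from synapses, and its promoter and upstream elements also answer to serum response factor.

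Signals are the authors' values on a log2 scale, where a difference of 1 is 2-fold. Rose and fell are used only of differences of at least 1, and values under a floor of 5.23, the median of all values, were raised to it. A gene counts as measured in a comparison where at least 1 of its 2 arrays lay above the floor, and a difference from a raised value is a lower bound. The 4 arrays had medians from 5.21 to 5.25 and correlated with each other at r from 0.996 to 0.997 over probe sets, which are not independent replicates. As the sole estimate of technical error, the log2 difference from the control was compared between the 2 brightest probe sets of a gene. Only probe sets above the floor on both arrays were used. The SD of the gap was divided by the square root of 2, to stand for 1 probe set. The result, called the technical SD, was 0.11, 0.16 and 0.14 for the 0.5, 1 and 3 h arrays, over 5091, 5072 and 5105 genes. This technical SD leaves out the spread between cultures and any shift shared by a whole array. It includes differences in what the probe sets of a gene detect. Of 15 stromal markers with a probe set, 12 were above the floor on all arrays, with Thy1, Lum and Dcn under it. Of 8 haematopoietic markers 2 were above it (Csf1r and Cd3e), with Ptprc and Itgam under it on all arrays, and of 7 endothelial markers Kdr alone was above it. In such bulk RNA, fewer responding cells and less RNA per cell cannot be told apart.

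Egr1 gave the largest change among the 7 genes. Its 1 probe set (1417065_at) read 8.68 (log2) on the control array and 11.83, 10.83 and 8.84 on the 0.5, 1 and 3 h arrays. The 0.5 h array was the highest and the 3 h array lay next to the control. Egr1 rose 8.93-fold at 0.5 h, a log2 difference of 3.16 and the 4th highest of 11574 genes. At 1 h it was still 4.47-fold above the control, the 6th highest of 11497 genes. At 3 h the log2 difference was 0.16, close to the technical SD on that array, and 16.5% of genes had a higher one. On a linear scale, 43.7% of the gain reached at 0.5 h was left at 1 h and 1.48% at 3 h. Centring the arrays on the bacterial poly-A control transcripts turned the 3 h difference to −0.22, whereas the 0.5 h value stayed between 3.11 and 3.18 under 4 other scalings.

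Egr2, the family member known for its role in myelin and hindbrain development, followed the same course at a smaller size. The brighter of its 2 probe sets (1427683_at) read 6.48 (log2) on the control array and 7.37, 6.88 and 6.31 on the LIPUS arrays in order of time. The other (1427682_a_at) read 6.16, then 7.17, 6.64 and 6.17. Both probe sets were highest at 0.5 h, intermediate at 1 h and near the control at 3 h. At 0.5 h the differences were 0.89 and 1.01, so the gene lay on either side of the 2-fold rule depending on the probe set, and with 0.89 it ranked 22nd of 11574 genes. The 2 probe sets differed by 0.13, where the technical SD of 1 probe set was 0.11. At 1 h the differences were 0.39 and 0.47, and at 3 h they were −0.17 and 0.01. Of the 0.5 h gain, 37.1% was left at 1 h by the brighter probe set and 38.3% by the other. These later values depend on the scaling. Poly-A centring put the brighter probe set at 0.12 at 1 h, within the technical SD of 0.16, and at −0.56 at 3 h. Its 0.5 h value stayed between 0.84 and 0.90 under 4 other scalings.

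Egr3 and Egr4, which in neurons and lymphocytes are induced together with Egr1, showed no such peak. Egr3 (1421486_at) read 6.63 (log2) on the control array and 6.57, 6.32 and 6.49 on the LIPUS arrays. Egr4 (1449977_at) read 6.005, then 5.82, 5.63 and 5.78. For both genes the control array was the highest and the 1 h array the lowest. The differences from the control at 0.5, 1 and 3 h were −0.05, −0.31 and −0.14 for Egr3 and −0.19, −0.37 and −0.22 for Egr4. None came near 2-fold, and all 6 lay within the range that held the middle 95% of genes, which had bounds of −0.26 and 0.27 for the 0.5 h array, −0.38 and 0.42 for 1 h, and −0.34 and 0.35 for 3 h. They stayed below 0 under each of 4 other scalings, while against the mean of the other 3 arrays the 0.5 h values were 0.10 for Egr3 and 0.01 for Egr4. A second Egr3 probe set (1436329_at) lay under the floor on all 4 arrays, with log2 signals from 3.95 to 4.47.

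**Figure D1:**
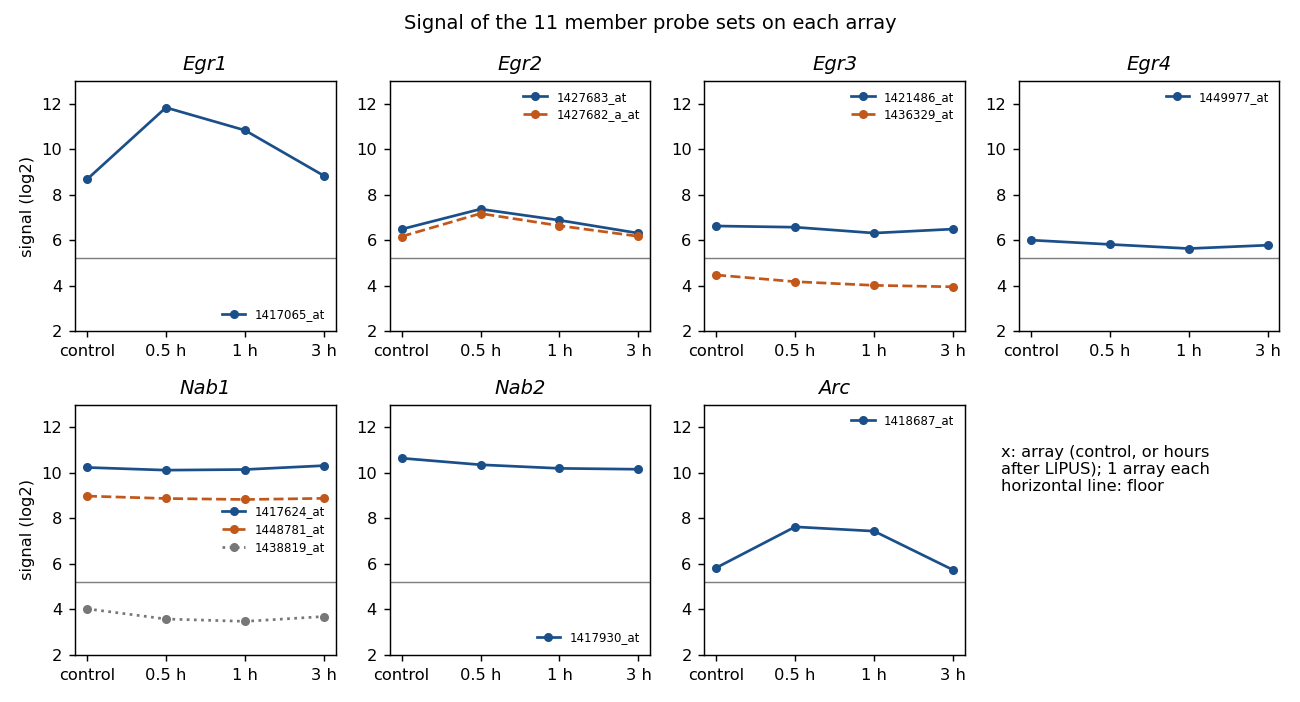
Log2 signal (vertical axis) of each of the 11 member probe sets on the control array and the arrays taken 0.5, 1 and 3 h after LIPUS (horizontal axis, evenly spaced, not to time scale), 1 panel per gene, with each line a probe set and the grey horizontal line the floor of 5.23. Egr1, both Egr2 probe sets and Arc are highest at 0.5 h. Nab2, Egr4, both Egr3 probe sets and all but the brightest Nab1 probe set are highest in the control. For Egr3 and Nab1, 1 probe set each lies under the floor throughout.

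The RefSeq promoter table (build GRCm38.p6) held 4 of the 7 genes, namely Egr2 with 5 annotated starts and Egr4, Nab1 and Nab2 with 1 start each. Egr1, Egr3 and Arc were not in the table. The 250 bases before a start were searched on both strands for the CArG box that serum response factor binds (CC, then 6 bases that are each A or T, then GG), for the core TGACG of the cAMP response element, and for the EGR site GCGNGGGCG, and no matches in the windows shown overlap. Over 32817 distinct windows of this length, 1.47% held a CArG box, 17.7% the TGACG core and 4.70% the EGR site. Egr2 and Egr4 are shown together because the first had the early peak and the second did not, with matches in capitals and positions counted back from −1, the base before the start. The Egr2 window, chr10:67537619-67537868 on the plus strand, belongs to the most upstream of 3 closely spaced starts and lies inside the annotated span of the gene. The Egr4 window is chr6:85513590-85513839 on the minus strand.
Egr2: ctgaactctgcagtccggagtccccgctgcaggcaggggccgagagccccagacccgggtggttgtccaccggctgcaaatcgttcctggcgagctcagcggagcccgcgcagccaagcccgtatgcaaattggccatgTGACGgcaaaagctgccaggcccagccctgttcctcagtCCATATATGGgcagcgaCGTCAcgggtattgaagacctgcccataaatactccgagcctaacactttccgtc
Egr4: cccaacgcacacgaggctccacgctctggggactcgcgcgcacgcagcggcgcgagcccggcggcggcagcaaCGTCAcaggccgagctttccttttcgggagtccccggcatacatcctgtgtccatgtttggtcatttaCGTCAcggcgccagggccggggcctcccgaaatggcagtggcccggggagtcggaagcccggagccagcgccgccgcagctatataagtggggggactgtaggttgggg
The Egr2 window held 1 CArG box, CCATATATGG at −72, and TGACG cores at −111 and −55. Of the other 4 Egr2 windows, the 2 that overlap this one share its CArG box, 1 further upstream held a different one, CCTTTTTTGG, and 1 held no match. The Egr4 window held TGACG cores at −177 and −109 and neither a CArG box nor an EGR site. These letters describe 1 stretch of each gene, and binding was not measured.

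Nab2, the corepressor gene that is itself an EGR target in other cells, did not follow Egr1. Its probe set (1417930_at) read 10.65 (log2) on the control array and 10.36, 10.20 and 10.16 on the LIPUS arrays. The control array was the highest, and each LIPUS array lay below the one before. The differences from the control were −0.29, −0.45 and −0.49, short of 2-fold, and the last equals a level of 0.714 times the control. Among all genes these were the 218th, 140th and 58th lowest differences, of 11574, 11497 and 11574 genes, and all 3 lay outside the middle 95% of genes. The 3 differences share the control array, so they are not 3 separate observations, and the steps that do not use it were −0.16 from 0.5 h to 1 h and −0.04 from 1 h to 3 h, with technical SDs of 0.14 and 0.10. With the mean of the other 3 arrays as reference, the values at 0.5, 1 and 3 h were 0.02, −0.19 and −0.24. The poly-A control transcripts differed from the control array by medians of −0.05, 0.28 and 0.41 in the 3 comparisons, and centring on them put Nab2 at −0.87 at 3 h. The 3 probe sets of 18S ribosomal RNA were all higher on each LIPUS array than on the control, with median differences of 0.96, 1.91 and 1.79 at 0.5, 1 and 3 h. The part of either in the results on Nab2 and the other 6 genes was not tested.

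Nab1, the other corepressor gene, was nearly flat. Its brighter probe set (1417624_at) read 10.24 (log2) on the control array and 10.12, 10.15 and 10.32 on the LIPUS arrays, and the next (1448781_at) read 8.98, then 8.88, 8.83 and 8.88. By the brighter one the differences were −0.12, −0.09 and 0.08, and by the other −0.11, −0.15 and −0.10, so the sign at 3 h depends on the probe set. It also depends on the scaling, and 4 others put the brighter one between −0.30 and 0.07. Another probe set (1438819_at) lay under the floor on all arrays, between 3.48 and 4.03. The widest range over the 4 arrays in either measured probe set was 0.20, against technical SDs of 0.11 to 0.16 in the comparisons with the control.

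The 2 NAB windows are shown because Nab2 is known as an EGR target and its signal did not follow that of Egr1. The Nab1 window is chr1:52500449-52500698 and the Nab2 window chr10:127666704-127666953, both on the minus strand of GRCm38.p6, with matches in capitals as before.
Nab1: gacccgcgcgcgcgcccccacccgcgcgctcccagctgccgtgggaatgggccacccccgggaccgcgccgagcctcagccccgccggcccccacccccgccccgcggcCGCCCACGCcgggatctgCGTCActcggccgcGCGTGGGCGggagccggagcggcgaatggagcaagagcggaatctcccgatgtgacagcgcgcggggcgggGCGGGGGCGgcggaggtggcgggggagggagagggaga
Nab2: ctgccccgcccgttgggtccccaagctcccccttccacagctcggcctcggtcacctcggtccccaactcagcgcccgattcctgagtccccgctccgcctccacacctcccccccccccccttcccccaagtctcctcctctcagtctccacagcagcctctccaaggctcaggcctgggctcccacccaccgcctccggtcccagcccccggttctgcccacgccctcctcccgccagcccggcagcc
Nab1 held 3 EGR sites, CGCCCACGC at −141 on the other strand, GCGTGGGCG at −109 and GCGGGGGCG at −38, and 1 TGACG core at −123. The Nab2 window, which covers only these 250 bases, held none of the searched motifs. The window is 80.8% G or C in Nab1 and 72.8% in Nab2. The Nab1 signal in the arrays above was level over the times at which Egr1 was raised. EGR protein and binding were not measured, and a link between these sites and the signals was not tested.

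Arc rose and returned like Egr1, but kept more of its gain to 1 h. Its probe set (1418687_at) read 5.83 (log2) on the control array and 7.63, 7.44 and 5.74 on the LIPUS arrays. The 0.5 h and 1 h arrays were high and the 3 h array was near the control in the deposited values. Arc rose 3.49-fold at 0.5 h and 3.06-fold at 1 h, log2 differences of 1.80 and 1.61, which were the 8th highest of 11574 and the 9th highest of 11497 genes. At 3 h the difference was −0.09. The later values depend on the scaling. Poly-A centring put Arc at 1.33 at 1 h and at −0.48 at 3 h, beyond the technical SD of 0.14. Its 0.5 h value stayed between 1.75 and 1.82 under 4 other scalings. On a linear scale, 82.8% of the 0.5 h gain was left at 1 h and −2.48% at 3 h, the minus sign meaning a signal below the control. The control signal of Arc lay only 0.60 above the floor. With the floor at the 75th percentile of all values, 7.72, Arc was not measured on any array. Of 8 neuronal markers, Snap25, Map2, Slc17a7, Gad1 and Nefl lay under the floor on all arrays, while Rbfox3, Syt1 and Syn1 were above it on at least 1. Their summed linear signal ran from 202 to 227 over the 4 arrays and was 220 in the control and 227 at 0.5 h.

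**Figure D2:**
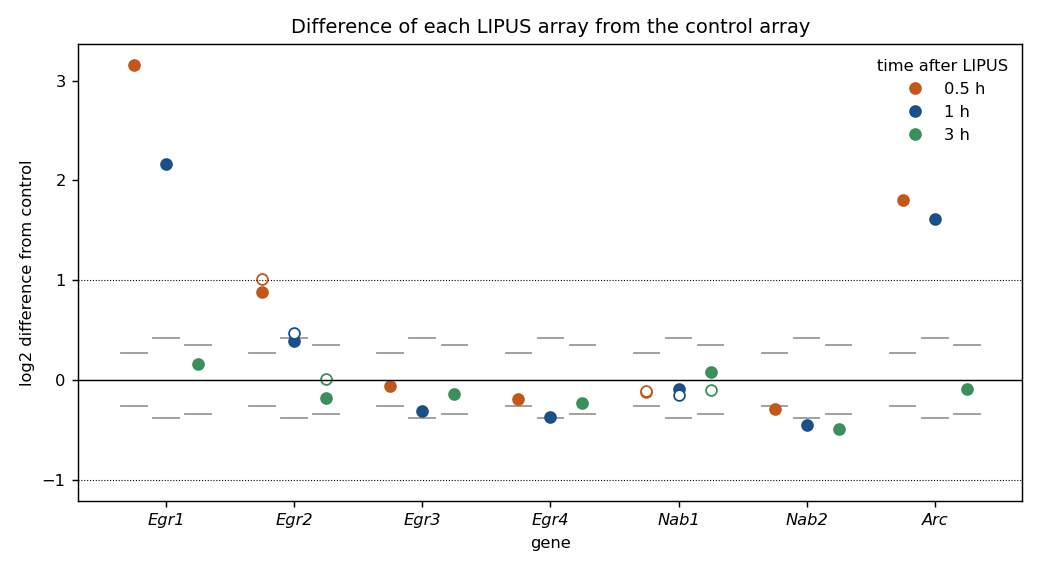
Log2 difference from the control array (vertical axis) for each of the 7 genes (horizontal axis) at 0.5 h (orange), 1 h (blue) and 3 h (green) after LIPUS, with filled points for the brightest probe set and open points for a further measured one. Short grey bars bound the middle 95% of all genes at that time and dotted lines mark 2-fold, which Egr1 and Arc pass at 0.5 h and 1 h and 1 of the 2 Egr2 probe sets passes at 0.5 h.

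Counted by the brightest probe set, 2 of the 7 genes, Egr1 and Arc, were at least 2-fold higher at 0.5 h, where 16 of 11574 genes were (0.138%). The same 2 were at least 2-fold higher at 1 h, where 22 of 11497 genes were (0.191%). None of the 7 was at 3 h, where 8 of 11574 genes were (0.0691%). In these 3 comparisons, which share 1 control array, no member was 2-fold lower and neither was any other measured gene (0%). With poly-A centring, 15 genes were higher and 12 lower at 1 h, and 4 higher and 15 lower at 3 h, with no member among the lower ones.

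The steps between LIPUS arrays leave the control out. From 0.5 h to 1 h the log2 difference was −0.999 for Egr1, just short of the rule, −0.49 for Egr2 by the brighter probe set and −0.19 for Arc. None of the 7 genes passed the rule in this step, where 4 of 11507 genes rose (0.0348%) and 1 fell (0.00869%). Those counts were 2 and 2 with quantile scaling, 4 and 2 with cyclic loess and 2 and 5 with poly-A centring. Egr1 had the 2nd lowest and Egr2 the 34th lowest difference of all genes, whereas 9.72% of genes were lower than Arc. The technical SD for this step was 0.14, smaller than the gap between Egr1 and Arc, and no test was possible. Quantile scaling, cyclic loess and poly-A centring put Egr1 past the rule, at −1.004, −1.02 and −1.23.

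From 1 h to 3 h, Egr1 fell by 2.00 and Arc fell by 1.70 on the log2 scale, to 0.25 and 0.307 times the 1 h level. They were the 5th and 7th lowest of 11494 genes, of which 10 fell (0.087%) and 0 rose. Egr2 had a difference of −0.57, the 56th lowest. Egr3, Egr4 and Nab1 had differences of 0.17, 0.15 and 0.17, and Nab2 was at −0.04. The 1 h array is part of both this step and the comparison at 1 h.

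Genes that carry the signal to EGR promoters were described by a list of 14 that held serum response factor, its cofactors, CREB factors and MAP kinases, of which 10 were measured. None passed 2-fold at any time, with medians of −0.11, −0.06 and −0.01 at 0.5, 1 and 3 h. Over all genes the medians were 0.01, 0.02 and 0.01. At least 2-fold higher were 0.138%, 0.191% and 0.0691% of all genes, and 0% were lower, so none in a short list is near that share. Elk4, which encodes an ETS cofactor of serum response factor, had differences of −0.22, −0.10 and −0.09, and Mrtfb, an actin-sensing cofactor gene, −0.17, −0.08 and 0.13. The arrays measured RNA of the listed genes and not the activity of the encoded proteins.

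Among 34 genes known from textbooks as EGR targets, 22 were measured at 0.5 h and 1 h and 23 at 3 h, and none passed 2-fold. Over all genes, 0.138%, 0.191% and 0.0691% were at least 2-fold higher and 0% lower, so this count is near that share. Their medians were −0.05, −0.04 and 0.01, and 7, 10 and 12 members lay above 0, against 52.7%, 54.7% and 52.2% of all genes. F3, which encodes tissue factor, had differences of −0.20, 0.32 and 0.22. Tgfb1, which encodes transforming growth factor beta, had −0.20, −0.39 and −0.30. Snai1, which encodes a repressor of epithelial genes and was chosen after its values were seen, was the highest at 1 h, at 0.996. It read 7.88 (log2) on the control array and 8.002, 8.88 and 7.94 on the LIPUS arrays, so the 1 h array stood apart. Median centring put it at 1.02 and poly-A centring at 0.72.

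NAB proteins repress in part through the nucleosome remodelling complex NuRD. All 14 listed subunits were measured and none passed 2-fold, with medians of 0.03, 0.07 and −0.03. Gatad2b, a subunit gene, had differences of −0.39, −0.28 and −0.19, and Mta2, another, 0.20, 0.12 and −0.01. Of 22 genes of Arc partners and clathrin endocytosis, 17 were measured and none passed, with medians of 0.07, −0.03 and 0.00. Dnm2, which encodes the dynamin that Arc binds, had differences of 0.18, −0.07 and −0.06. Camk2a, which encodes a calcium-dependent kinase of synapses, had 0.18, −0.08 and 0.15. In both lists the lack of calls is near the share of all genes. Of these, 0.138%, 0.191% and 0.0691% were at least 2-fold higher at 0.5, 1 and 3 h.

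Of 26 genes that neurons induce with activity, 21 were measured at 0.5 h and 1 h and 20 at 3 h. At 0.5 h, 2 of them rose, Fos at least 12.1-fold from a control signal under the floor and the prostaglandin synthase gene Ptgs2 by 2.29-fold. At 1 h Fos alone rose, at least 5.80-fold, and at 3 h none did. Over all genes, 0.138% rose at 0.5 h, 0.191% at 1 h and 0.0691% at 3 h. The list medians were 0.12, 0.32 and 0.10, with 16, 17 and 12 members above 0, against 52.7%, 54.7% and 52.2% of all genes. Of 12 zinc finger genes whose products read GC-rich sites near those of EGR factors, 10 were measured, with medians of −0.06, 0.09 and 0.06. At 0.5 h their differences ran from −0.54 for Zbtb7a to 0.56 for Klf6, and none passed 2-fold. Klf10, known as a TGF-beta inducible early gene, rose at 1 h with a difference of 1.03, after 0.08 at 0.5 h, and lay at 0.995, 0.987 and 0.751 with quantile scaling, cyclic loess and poly-A centring.

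**Figure D3:**
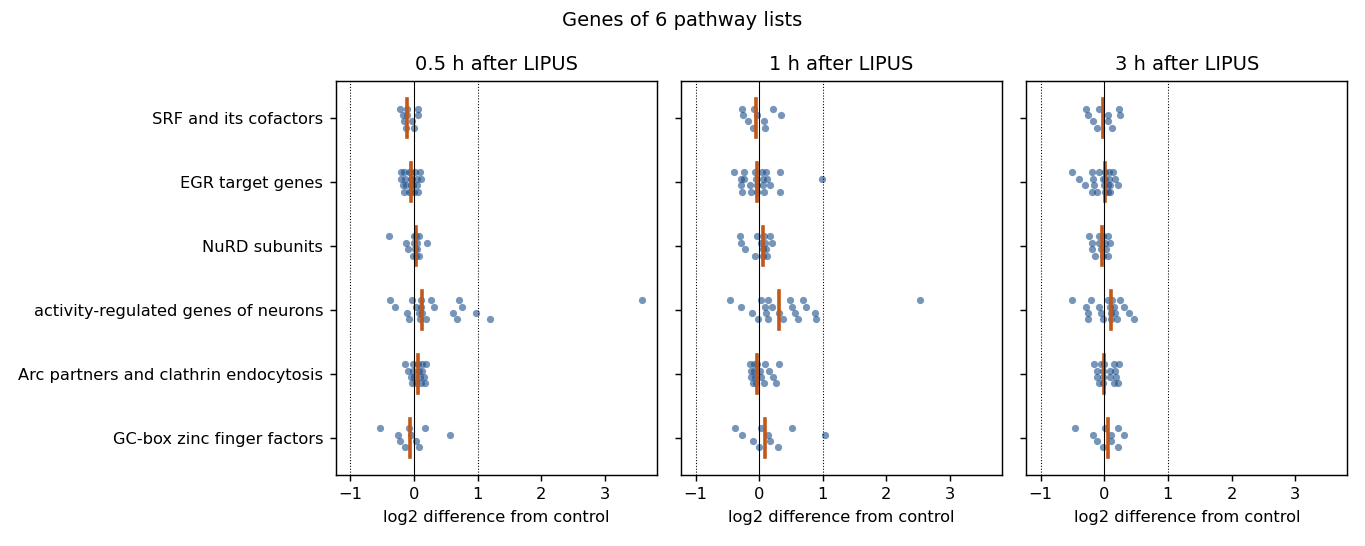
Log2 difference from the control (horizontal axes) of the measured genes of 6 lists (rows) at 0.5, 1 and 3 h after LIPUS (panels), with each blue point a gene, the orange bar the list median and dotted lines at 2-fold. Fos and Ptgs2 at 0.5 h, and Fos and Klf10 at 1 h, are the points past 2-fold, with Fos drawn at its lower bound, and the point next to the line among the EGR targets at 1 h is Snai1.

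Likeness to Egr1 and to Arc was measured by Pearson's r over the 4 arrays, among the 32 genes outside the set whose signal spanned at least 1 on the log2 scale. With 4 points r describes shape only. The filter kept changed genes alone, and no measured gene was at least 2-fold lower than the control. High values of r can thus partly come from the filter. The 5 genes closest to Egr1 were Fos at 0.997, Clk1, a splicing factor kinase gene, at 0.993, Ccdc117 at 0.989, Rsrp1 at 0.987 and Ptgs2 at 0.985. The 5 closest to Arc were Phlda1 at 0.998, the co-chaperone gene Dnajb1 at 0.983, Errfi1, which encodes a feedback inhibitor of the EGF receptor, at 0.978, Atf3 at 0.976 and Fos at 0.972. Within the set, Egr1 had an r of 0.979 with Arc and 0.966 with Egr2. The lists share Fos. From 0.5 h to 1 h the difference from the control went from 1.63 to 1.57 for Phlda1 and from 0.76 to 0.58 for Errfi1. It went from 2.46 to 2.70 for Dnajb1 and from 1.86 to 2.26 for Atf3, and the lower bound for Fos went from 3.59 to 2.54. The genes close to Arc thus differed in direction between these times. Clk1, close to Egr1, went from 1.29 to 0.75.

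**Figure D4:**
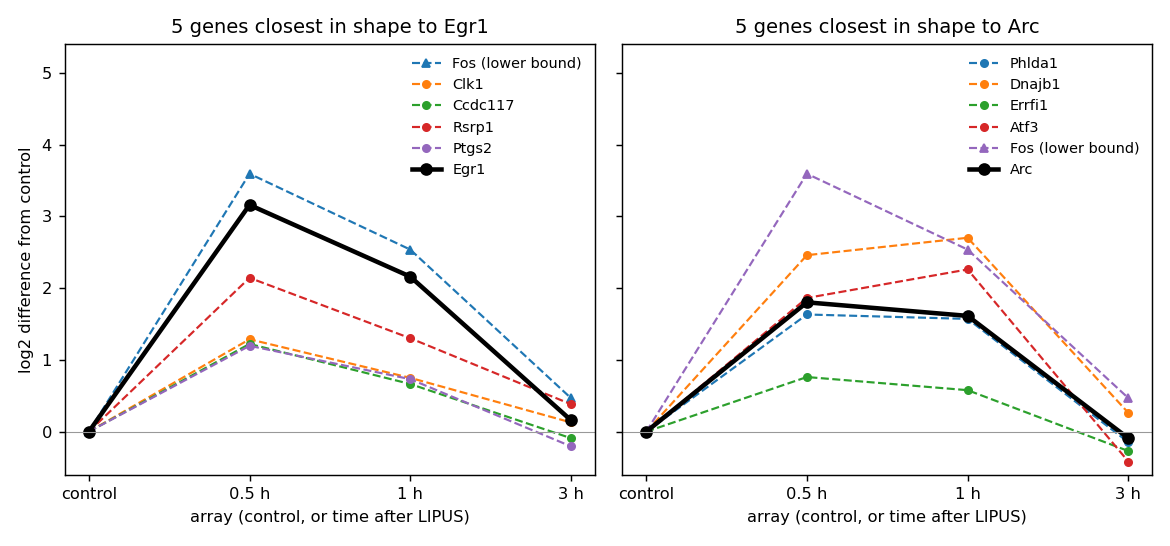
Log2 difference from the control (vertical axis) on the 4 arrays (horizontal axis, not to time scale) for Egr1 and Arc (black) and the 5 genes with the highest r to each (dashed). Triangles mark Fos, whose values are lower bounds. Egr1 and its 5 neighbours drop between 0.5 h and 1 h. Arc, Phlda1 and Errfi1 are slightly lower at 1 h than at 0.5 h, Fos is lower by more, and Dnajb1 and Atf3 are higher.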

How the data were processed

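The authors deposited 1 value per probe set for each of 4 arrays, on a log2 scale whose base was taken from its range, 1.53 to 14.5. Summarisation and scaling are not given in the sources used here. Per the labels' protocols, 500 ng of RNA with an integrity number above 9.5 was labelled with a 3' kit.

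Probe sets of a single symbol (34945) were named from the platform annotation, updated through the Entrez number, and the brightest on average stood for a gene. Values under the 50th percentile were raised to it. Comparisons left out genes with both arrays at or under that floor, and a difference against a floored array is a lower bound. Calls used a fixed size of 2-fold, without a test, because each group had 1 array. The calculation was tested on simulated data, with changes larger than 2-fold put only into genes well above the floor. It therefore does not cover changes close to 2-fold, or changes in genes as dim as Egr2, Egr3, Egr4 and Arc. The members and gene lists were chosen with earlier results of these data known.

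Named list genes were those past 2-fold at any time or, in lists without one, the 2 with the largest difference at 0.5 h. The floor, scaling, choice of probe set, threshold and reference array were varied. Python 3.11.15, numpy 2.4.6, pandas 2.3.3, R 4.3.3 and limma 3.58.1 were used.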

Additional observations from a re-analysis of the deposited data

Results flagged for a closer look

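Arc changed sign between times: its log2 difference from the control was 1.80 at 0.5 h and −0.0918 at 3 h. The difference between these times was not tested, and the latter value is within the technical SD of 0.14. Poly-A centring put it at −0.48, beyond that SD.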

How the results depend on the processing

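Of 53 recomputed counts of member genes past the rule, 45 stayed within 1.5 times the reported one. A count of 0 that stayed 0 is among the 45. So is the count at 0.5 h with a 1.5-fold threshold, 3 against 2, where Egr2 joined Egr1 and Arc. At that threshold 43 of 11574 genes were higher and 12 lower. With the floor at the 75th percentile, where Arc and the Egr2, Egr3 and Egr4 probe sets were not measured, 1 gene (Egr1) passed at 0.5 h, 1 at 1 h and 1 in the step from 1 h to 3 h. From 0.5 h to 1 h, 1 gene (Egr1) passed with quantile scaling, cyclic loess, poly-A centring or a 1.5-fold threshold, against 0 as reported. At 3 h, 2 genes passed against the mean of the other 3 arrays, both lower, Egr1 at −1.61 and Arc at −1.23. That reference includes the 0.5 h and 1 h arrays. Poly-A centring put the median of all genes at −0.25 at 1 h and −0.36 at 3 h, where it was 0.02 and 0.01 as reported, and at −0.21 and −0.12 in the steps from 0.5 h to 1 h and from 1 h to 3 h, where it was 0.01 and −0.01. Of 281 recomputed gene values, 42 moved by more than the technical SD, and no value past 2-fold changed sign. All 42 came from poly-A centring or from the reference of the other 3 arrays. Poly-A centring moved all 7 genes in every comparison except 0.5 h against the control. Another floor could not move a gene that stayed above it. Averaging over probe sets could not move a gene with 1 measured probe set. The 281 therefore include values that could not change. No paired analysis was possible because each group had 1 array. On the control array the signal used for Egr2, Egr3, Egr4 and Arc lay 1.26, 1.40, 0.78 and 0.60 above the floor.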
